A study of Mus musculus with 6 samples.

Results

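The genes described here are 54 genes of the cell division cycle, 26 that act when DNA is copied in S phase and 28 that act in G2 phase and mitosis, out of 17068 genes listed. They were chosen by name, and all 54 were found in each of the authors' deposited gene tables. The cells were haematopoietic stem cells (HSCs), the rare bone marrow cells from which all blood lineages descend, sorted from Gfp-Lc3 mice, whose transgene labels autophagosomes by fusing GFP to the protein LC3. The 6 libraries came from 6 mice, all of that genotype: young ad lib, young after a 24 h fast, young after a 24 h fast and 24 h of refeeding, and old mice under the same 3 conditions, with 1 mouse in each group. The deposited tables compare each of 11 clusters, numbered 0 to 10, with all other cells of the pooled libraries. They carry no column for a library, so age and feeding were not compared here, no value has an error between animals, and a cluster that came mainly from 1 library cannot be told apart from a cell state. Clusters were defined on the same expression values, so no value of a cluster against the rest is given as a test.

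A dividing cell first licenses its replication origins by loading the MCM helicase, then fires them and copies its DNA with polymerases, the PCNA clamp and a supply of nucleotides and histones. It then enters mitosis when cyclins A and B activate CDK1, builds a spindle, attaches chromosomes to it at the kinetochores, and leaves mitosis when the cyclins are destroyed. Adult HSCs are known for being mostly quiescent, that is, outside this cycle. Replication genes are classically switched on by E2F factors and mitosis genes by the MuvB complex with B-MYB or FOXM1, and both groups are held down in resting cells.

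In all, 22378 cells were analysed, and clusters 0 to 5 held 96.1% of them, with 4904, 3955, 3910, 3802, 3747 and 1188 cells. Clusters 6 to 10 held 310, 267, 173, 112 and 10 cells. The typical count per cell was between 11458 and 12414 in clusters 0 to 5. In clusters 6 to 10 it was 10314, 8490, 12433, 13919 and 47224. The median log2 fold change of all genes with a count lay between -0.06 and 0.13 in every cluster except cluster 6 (-0.23) and cluster 10 (0.37), and values there are best read against those medians. Of the 12 HSC markers listed, Hlf was found in at least 85.7% of cells, Kit in 78.7% and Mecom in 72.9%. The least common were Tie1 in 41.2%, Slamf1 in 28.3%, Fgd5 in 28.1%, Hoxb5 in 23.4% and Ctnnal1 in 21.8%. Several lineage markers were near 0, with Mpo in 0.294% of cells and Cd79a in 0.327%, but Prtn3, a granule protease, was found in 90.3% and Car2, an erythroid enzyme, in 92.1%. Members of further lineage lists were also common, among them the B cell gene Cd79b in 32.7% and the T or NK cell genes Klrb1c and Nkg7 in 16.2% and 10.4%. The neutrophil transcripts S100a8 and S100a9 were found in 6.40% and 7.69% of cells, at shares between 7.12% and 8.15% for S100a9 in clusters 0 to 8. In the small clusters 9 and 10 the S100a9 share was higher, 17.2% and 35.0%. Shares of a few percent are not read below as expression by the cells that hold the transcript. Free RNA in the droplets could give such shares, and this was not tested.

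Replication transcripts were common and mitosis transcripts were scarce. The share of cells with a transcript is given throughout as a lower limit worked out from the deposited means and p-values, and the level as the mean count per 10000 counts of a cell. The median replication gene was at 0.15 per 10000 and in 15.7% of cells, and the median mitosis gene was at 0.0181 and in 1.92%. The median of all genes was 0.0971, and 17 of 26 replication genes but 5 of 28 mitosis genes reached it. These levels are not corrected for transcript length, so the order of genes is that of the counts.

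**Figure D1:**
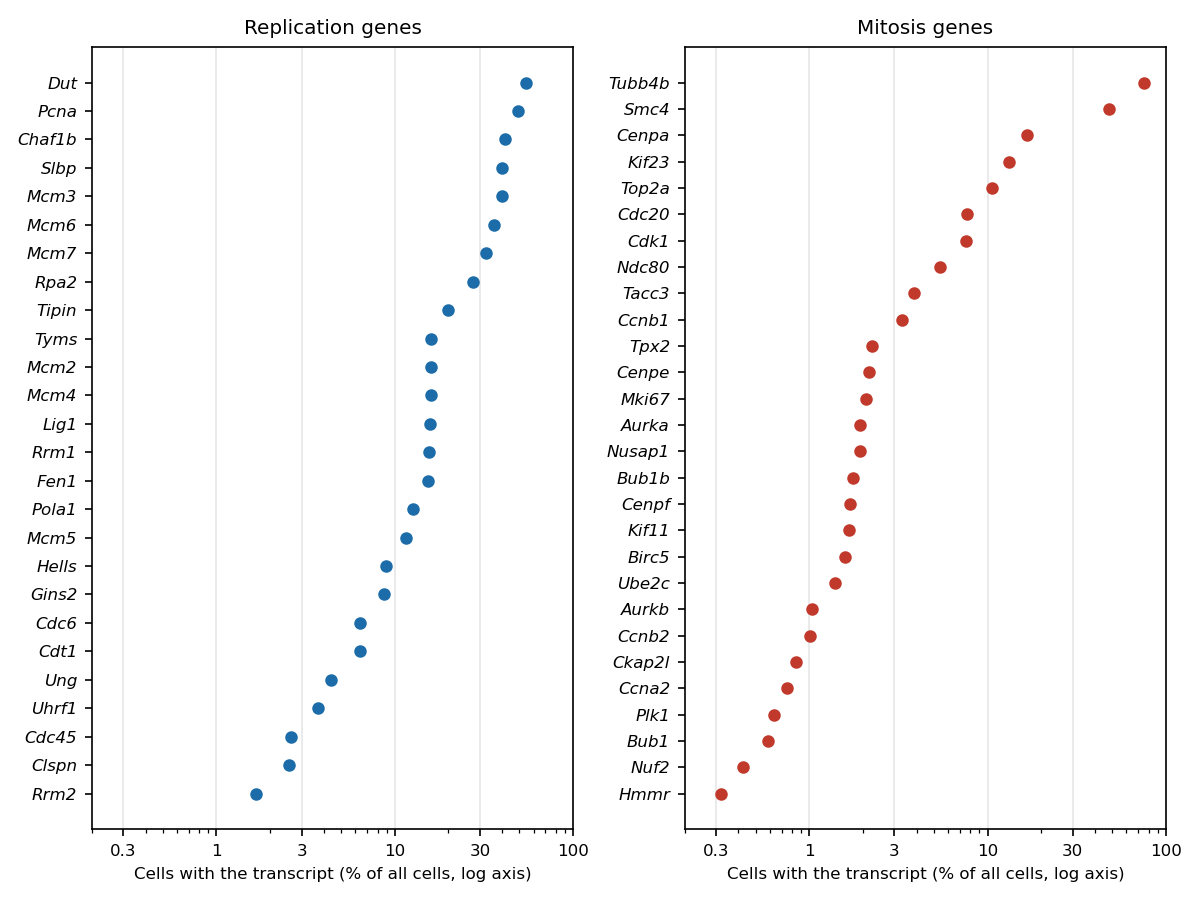
Share of all 22378 cells with each transcript (percent, log axis; a lower limit), replication genes on the left and mitosis genes on the right, 1 point per gene. Replication genes run from 1.66% (Rrm2) to 54.3% (Dut), and mitosis genes from 0.319% (Hmmr) to 75.2% (Tubb4b), with most mitosis genes under 3%.

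Among the licensing genes, Mcm3 and Mcm6, which encode subunits of the replicative helicase, had the highest levels, 0.517 and 0.442 per 10000, in 39.8% and 35.9% of cells. The other helicase subunit genes Mcm7, Mcm2, Mcm4 and Mcm5 were in 32.3%, 15.9%, 15.9% and 11.6% of cells. The loader genes Cdc6 and Cdt1, whose products place the helicase on origins, were in 6.40% and 6.37%, below each of those 6 subunits. Of the genes that activate the helicase or protect the fork, Tipin (fork protection) was in 20.0% and Gins2 (a subunit of the active helicase) in 8.71%, whereas Cdc45 and Clspn were in 2.62% and 2.55%. Pcna, the sliding clamp, was at 0.67 per 10000 in 49.0% of cells, and Rpa2, a subunit of the single-strand binding protein, at 0.286 in 27.4%. Lig1 (the ligase that joins Okazaki fragments) was in 15.7%, Fen1 (the flap nuclease) in 15.3% and Pola1 (the priming polymerase) in 12.7%.

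The nucleotide supply genes were split. Dut, which removes dUTP, was in 54.3% of cells at 0.795 per 10000, the highest level of the 26 replication genes, and Tyms, thymidylate synthase, was in 16.0% at 0.15. Of ribonucleotide reductase, the large subunit gene Rrm1 was in 15.6% of cells, and the small subunit gene Rrm2, known to be limited to S phase, in 1.66%. Ung, which excises uracil from DNA, was in 4.39%. In the chromatin group, the histone chaperone gene Chaf1b and the histone mRNA-binding protein gene Slbp were in 41.6% and 40.1% of cells. Hells and Uhrf1, which act in DNA methylation upkeep, were in 8.98% and 3.69%.

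Of the cyclin and kinase genes of mitotic entry, Cdk1 and Ccnb1 had the highest levels, 0.0687 and 0.0287 per 10000, in 7.59% and 3.29% of cells. Ccnb2 was in 1.01% and Ccna2 in 0.751%. The mitotic kinases and checkpoint genes were all under 2%: Aurka 1.93%, Bub1b 1.75%, Birc5 (survivin, of the chromosomal passenger complex) 1.59%, Aurkb 1.03%, Plk1 0.635% and Bub1 0.588%. Cdc20 and Ube2c, which drive cyclin destruction, were in 7.64% and 1.39%. At the centromere, Cenpa, the centromeric histone, was in 16.6% of cells and Ndc80, of the outer kinetochore, in 5.43%. The kinetochore motor gene Cenpe was in 2.15%, Cenpf in 1.70% and Nuf2 in 0.427%.

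Spindle genes ranged the most. Tubb4b, a beta tubulin that also serves resting cells, was in 75.2% at 2.34 per 10000, and Kif23, a motor of the central spindle, was in 13.1% at 0.147. The others ran from 3.84% for Tacc3 through 2.25% for Tpx2, 1.92% for Nusap1, 1.67% for Kif11 and 0.842% for Ckap2l to 0.319% for Hmmr. Of the chromosome structure genes, the condensin gene Smc4 was in 48.1% at 0.724 per 10000, the topoisomerase gene Top2a in 10.6% at 0.11, and Mki67, whose protein Ki-67 is the standard marker of cycling cells, in 2.09%. Tubb4b and Smc4 together make up most of the summed mitosis level, so sums over the mitosis genes mainly follow those genes, and medians are used below.

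Across the clusters, the changes were few. A gene is called higher or lower in a cluster where the log2 fold change in the authors' deposited table is at least 0.5 in size and the deposited adjusted p, which treats cells as replicates and serves only as a filter on noise, is under 0.05. Every log2 fold change below is the value in the authors' deposited tables, and every share of cells was worked out from those tables. Replication genes were called higher in 3 and lower in 8 of 286 pairs of gene and cluster (1.05% and 2.80%), against 1.27% and 3.67% over all genes. Mitosis genes were called higher in 9 and lower in 10 of 308 pairs (2.92% and 3.25%). Pairs in which the gene had no count are kept apart: this was so for 1 replication pair and 20 mitosis pairs, 0.35% and 6.49%, against 8.88% over all genes that pass the filter with no count. All 3 higher replication calls were in cluster 10, and of the 9 higher mitosis calls 5 fell in cluster 8, 3 in cluster 0 and 1 in cluster 10.

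**Figure D2:**
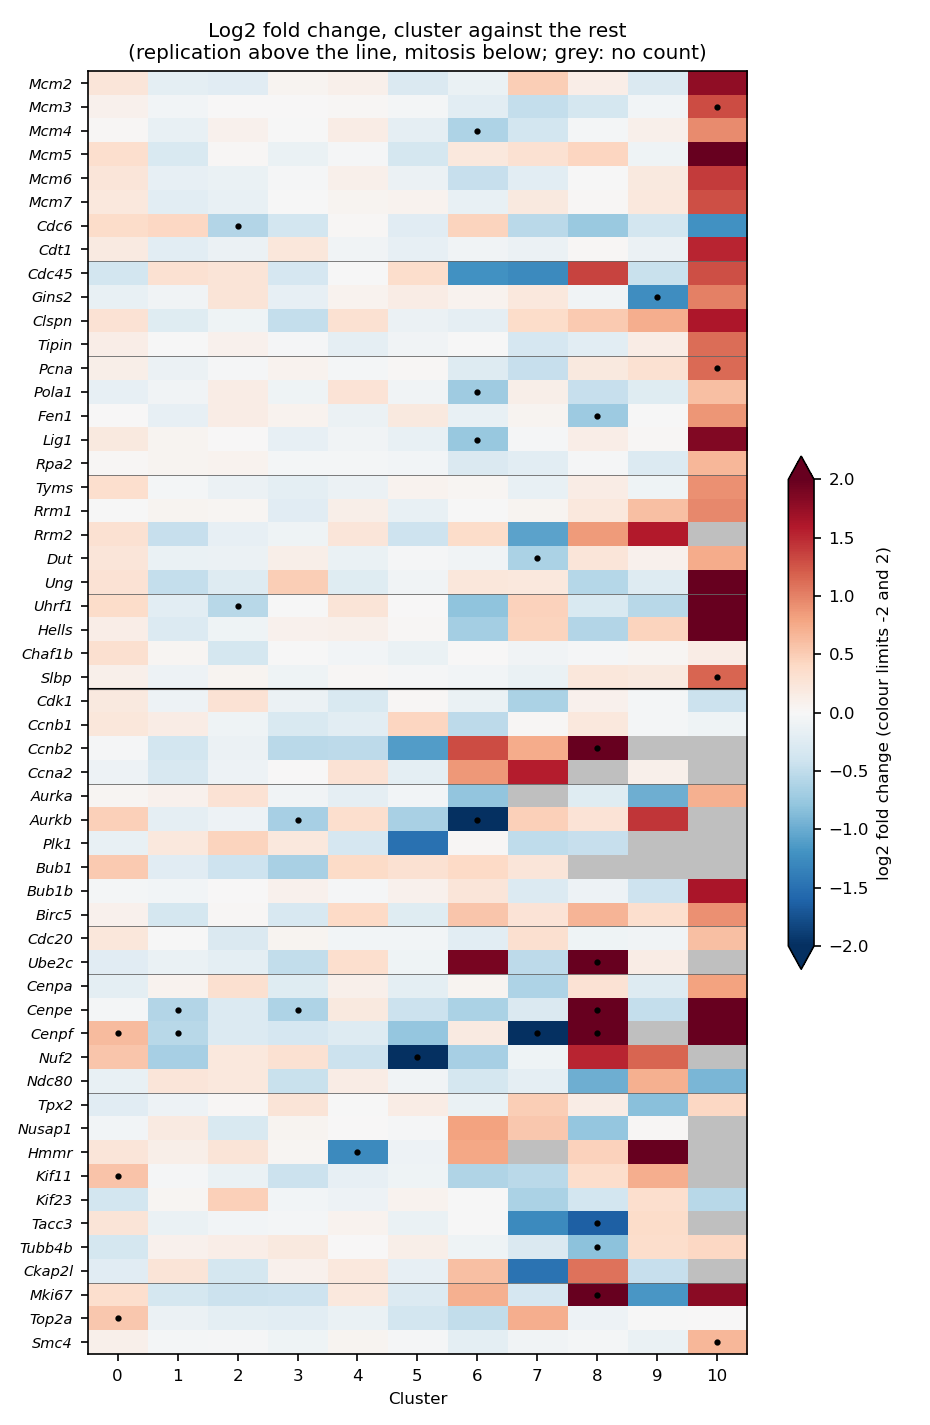
Log2 fold change of each of the 54 genes (rows, grouped by role, replication above the thick line and mitosis below) in each cluster against all other cells (columns), from the authors' deposited tables, with colours limited to -2 and 2, dots for called genes and grey for no count. The strong reds include Cenpe, Ccnb2, Cenpf, Mki67 and Ube2c in cluster 8 and most replication genes in cluster 10. Some mitosis genes that were not called are also strong red, among them Hmmr in cluster 9 (2.34) and Cenpe in cluster 10 (2.75).

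In cluster 8, with 173 cells, 5 mitosis genes were called higher and no replication gene was, against 2.37% of all genes called higher there. Cenpe, the motor that carries chromosomes to the middle of the spindle, was in at least 53 of the 173 cells, 30.8% (95% exact binomial interval 23.9 to 38.1), and in 1.92% of all other cells. Its log2 fold change in the authors' deposited table was 4.60. By cluster, its share was 2.12%, 1.65%, 2.00%, 1.42%, 2.44% and 1.76% in clusters 0 to 5, then 1.42%, 1.57%, 30.8%, 1.78% and 26.2% in clusters 6 to 10. Cluster 8 stood above clusters 0 to 7 and 9. The share in cluster 10 rests on 3 of 10 deep cells (interval 6.67 to 65.2), and Cenpe was not called there. Counts of Cenpe per carrying cell, from a mean of log values weighted to cells with more of it, were about 1.93 in cluster 8. They were between 1.09 and 1.41 in the other clusters up to cluster 9. Each mean was scaled by the typical count per cell of its cluster.

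Ccnb2, a cyclin that activates CDK1, was in at least 27 of the 173 cells, 15.9% (10.5 to 21.9), against 0.891% of other cells, with a deposited log2 fold change of 4.62. Outside clusters 8 and 10 its share was between 0.00% and 2.11%. Cenpf, a large protein of the outer kinetochore, was in 27 cells, 15.8% (10.5 to 21.9), against 1.59%, with a deposited log2 fold change of 3.65. Mki67 was in 24 cells, 13.9% (9.10 to 19.9), against 1.99%, at a fold change of 2.98 in the authors' deposited table. Ube2c, the enzyme that tags mitotic cyclins for destruction, was in 15 cells, 8.60% (4.93 to 13.9), against 1.34%, at a deposited fold change of 2.54. In clusters 0 to 7 and 9 the shares of these 5 genes were at most 2.62% (Mki67 in cluster 0). The genes are described because they were called, and the intervals cover counting error only, so neither is a test. Of all cells with the transcript, cluster 8, which is 0.773% of the cells, held 12.2% for Ccnb2, 11.1% for Cenpe, 7.19% for Cenpf, 5.15% for Mki67 and 4.78% for Ube2c. Most carriers of each gene were therefore in other clusters, at low shares.

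**Figure D3:**
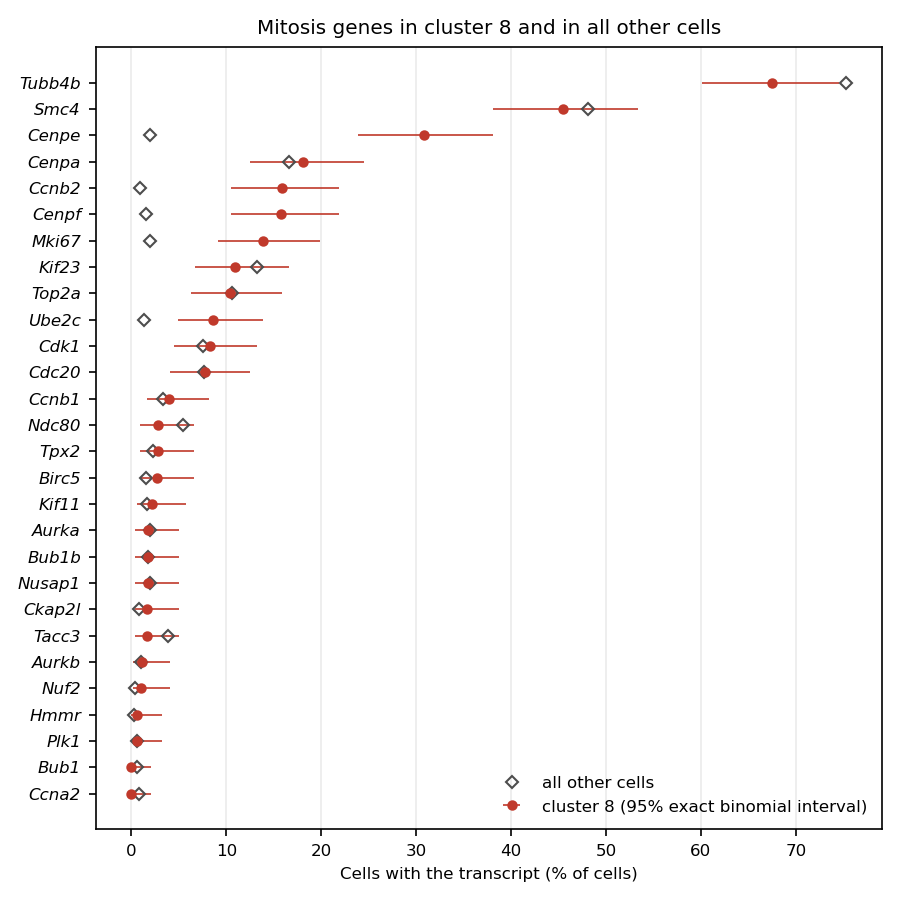
Share of cells with each of the 28 mitosis transcripts (percent of cells) in cluster 8 (filled points, with 95% exact binomial intervals that cover counting error only) and in all other cells (open diamonds). Cenpe (30.8% against 1.92%), Ccnb2, Cenpf, Mki67 and Ube2c stand apart to the right, and Tubb4b (67.5% against 75.3%) lies to the left.

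No other mitosis gene was called higher in cluster 8. Nuf2, Ckap2l and Birc5 had fold changes of 1.53, 1.08 and 0.69 that did not pass the filter, and the 5 centromere genes had a median of 1.53 with 4 above 0. Top2a was in 10.4% of cluster 8 and 10.6% of other cells, Cdk1 in 8.24% and 7.59%, and Cdc20 in 7.80% and 7.65%. Aurka, Aurkb, Bub1b and Plk1 had intervals in cluster 8 that contained the share in other cells. Ccna2, the S and G2 cyclin, and Bub1, a checkpoint kinase, had no count there, which allows a share of up to 1.73%, above their shares elsewhere. Tubb4b and Tacc3 were called lower, at -0.82 and -1.63 in the authors' deposited table, where 3.46% of all genes were called lower. The value of Tacc3 rests on at least 3 carrying cells. The median of the 28 mitosis genes in cluster 8 was 0.11 and that of the 26 replication genes 0.01, against 0.13 for all genes. Among replication genes the flap nuclease gene Fen1 was called lower (-0.72, in 9.83% of cells against 15.4%), and Pcna was in 59.5% of cluster 8 against 49.0%, with a fold change of 0.19. Summed markers of long-term HSCs were at 12.3 per 10000 in cluster 8, with 5 of 12 called lower, and between 10.6 and 17.7 across all clusters. No marker of megakaryocytes, neutrophils, B cells or granulocyte-monocyte progenitors was called higher in cluster 8, and 1 of 12 erythroid markers was.

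From a list of 60 other mitosis genes, 4 were called higher in cluster 8, against 2.37% of all genes: Cdca3, which promotes mitotic entry, at 3.27 (8.94% of cells against 0.89%), the spindle gene Psrc1 at 2.47 (15.7% against 3.11%), the centromere gene Cenpm at 1.82 (11.3% against 3.04%) and the chromatin protein gene Hmgb2 at 0.86 (85.6% against 70.6%). In the same comparison 8 of those 60 were called lower, against 3.46% of all genes. Among them were the kinetochore gene Spc25 at -2.27 and the spindle gene Dlgap5 at -1.89, each with 1 carrying cell. Of 50 other replication genes none was called higher there and 3 were called lower, the polymerase genes Pole at -1.32 and Pold1 at -0.90 and the fork protection gene Timeless at -1.31. These rest on at least 9, 11 and 3 carrying cells. Only 1 of 23 E2F and mitotic transcription regulators was called in cluster 8, Lin9 of the MuvB complex, which was lower at -0.85, a share near that of all genes.

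Promoters of 6 genes, chosen after their values were seen, are shown next, as 300 bases from 250 before to 50 after the RefSeq start site on GRCm38.p6, since E2F sites and the CHR (cell cycle homology region) are the known letters through which these groups are controlled. Capitals mark matches on either strand to E2F letters (TTTCGCGC, TTTGGCGC, TTCCCGCC, TTCGCGCC), CHR letters (TTTGAA or TTCGAA) or the CCAAT box. Mcm5 and Mcm6, called in no cluster, are shown as replication genes whose promoters hold E2F letters, as most of that group do not. Cenpe, Ccnb2 and Mki67 are 3 of the 5 genes called higher in cluster 8, and Top2a is a mitosis gene that was not. They lie at chr8:75109259-75109558 (plus strand), chr1:128359656-128359955 (minus), chr3:135212313-135212612 (plus), chr9:70421505-70421804 (minus), chr7:135716330-135716629 (minus) and chr11:99024140-99024439 (minus), in that order.
Mcm5: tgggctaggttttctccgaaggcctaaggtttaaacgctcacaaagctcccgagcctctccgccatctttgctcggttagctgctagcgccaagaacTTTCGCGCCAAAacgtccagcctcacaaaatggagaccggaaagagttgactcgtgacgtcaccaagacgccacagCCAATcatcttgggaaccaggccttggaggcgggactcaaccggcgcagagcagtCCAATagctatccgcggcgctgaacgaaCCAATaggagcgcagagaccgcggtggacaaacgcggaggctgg
Mcm6: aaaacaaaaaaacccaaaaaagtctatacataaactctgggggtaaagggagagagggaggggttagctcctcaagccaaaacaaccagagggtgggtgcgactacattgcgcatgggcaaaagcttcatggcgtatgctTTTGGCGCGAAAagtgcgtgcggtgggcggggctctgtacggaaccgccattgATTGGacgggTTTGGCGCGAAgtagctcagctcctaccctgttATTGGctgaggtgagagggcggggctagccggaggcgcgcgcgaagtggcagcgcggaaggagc
Cenpe: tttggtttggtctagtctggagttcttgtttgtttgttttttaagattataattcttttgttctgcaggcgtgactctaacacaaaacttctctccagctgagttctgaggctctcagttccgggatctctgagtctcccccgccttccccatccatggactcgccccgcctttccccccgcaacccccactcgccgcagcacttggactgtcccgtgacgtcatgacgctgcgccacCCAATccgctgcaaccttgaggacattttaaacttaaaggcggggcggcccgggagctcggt
Ccnb2: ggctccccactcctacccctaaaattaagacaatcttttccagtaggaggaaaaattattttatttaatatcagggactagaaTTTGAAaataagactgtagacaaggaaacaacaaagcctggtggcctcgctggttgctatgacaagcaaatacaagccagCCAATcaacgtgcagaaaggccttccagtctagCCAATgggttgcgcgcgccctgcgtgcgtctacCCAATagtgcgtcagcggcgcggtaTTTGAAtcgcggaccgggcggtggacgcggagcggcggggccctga
Mki67: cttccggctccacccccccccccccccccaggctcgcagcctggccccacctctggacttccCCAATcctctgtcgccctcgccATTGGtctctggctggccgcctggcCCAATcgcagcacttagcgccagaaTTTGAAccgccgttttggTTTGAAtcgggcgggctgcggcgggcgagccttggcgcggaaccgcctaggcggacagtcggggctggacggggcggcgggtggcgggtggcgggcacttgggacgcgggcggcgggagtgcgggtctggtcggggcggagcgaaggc
Top2a: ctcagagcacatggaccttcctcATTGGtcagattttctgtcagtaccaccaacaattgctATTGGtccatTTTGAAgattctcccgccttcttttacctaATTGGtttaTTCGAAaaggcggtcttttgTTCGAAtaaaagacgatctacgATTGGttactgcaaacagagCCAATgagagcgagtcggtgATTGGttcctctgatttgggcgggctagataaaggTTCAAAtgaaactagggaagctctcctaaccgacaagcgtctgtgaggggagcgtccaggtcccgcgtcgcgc

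A promoter was listed for 47 of the 54 genes, and for 27025 genes in all. Where a gene had several starts listed, the first was used. E2F letters were in 9 of 23 replication promoters (39.1%), in 1 of 24 mitosis promoters (4.17%, Cdk1) and in 3.40% of all promoters. The 9 were Mcm3, Mcm5, Mcm6, Mcm7, Cdt1, Clspn, Pola1, Rrm1 and Uhrf1. With any listed start, E2F letters were in 11 of 23 replication genes (47.8%), 1 of 24 mitosis genes and 3.8% of all genes. CHR letters were in 18 of 24 mitosis promoters (75.0%), 4 of 23 replication promoters (17.4%) and 19.4% of all promoters. CCAAT was in 79.2%, 60.9% and 37.9%. In Mcm5 overlapping E2F matches lay between 153 and 142 bases before the start. Ccnb2 held 3 CCAAT matches on the plus strand and a CHR match from 4 to 9 bases after the start. Cenpe held 1 CCAAT match and no CHR match in this window, and Top2a held 4 CHR and 6 CCAAT matches. CHR letters were in 4 of the 5 genes called higher in cluster 8 and in 14 of the 19 other mitosis genes with a promoter, so the letters were found in both. A match is a string of letters and was not read as a bound site.

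Cluster 0, the largest, was the only one of clusters 0 to 5 in which members were called higher. They were 3 mitosis genes, against 2.4% of all genes called higher and 6.13% called lower there: Cenpf at 0.63, the spindle motor gene Kif11 at 0.57 and Top2a at 0.54 in the authors' deposited table. Top2a was in 14.0% of cluster 0 (13.1 to 15.1) and in 9.74%, 9.69%, 9.49%, 9.79% and 8.60% of clusters 1 to 5. Cenpf was in 2.34% of cluster 0 and 0.941% to 1.62% of clusters 1 to 5, and Kif11 in 2.20% against 1.52% of all other cells. Cluster 0 held 29.0% of all cells with Top2a, 30.3% of those with Cenpf and 29.0% of those with Kif11, and 21.9% of all cells.

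Replication genes in cluster 0 leaned the same way without any passing the size rule. Their median was 0.18 against 0.01 for all genes, 22 of 26 lay above that median, and the highest was at 0.37. All 8 licensing genes were above 0 (median 0.22), as were all 4 chromatin genes (0.22) and 4 of 5 nucleotide supply genes (0.29), whereas the 4 helicase activation genes had a median of -0.01. Pcna was in 51.7% of cluster 0 and between 46.5% and 50.8% of clusters 1 to 5, and Chaf1b in 47.2% against a low of 36.1% in cluster 2. The summed replication level was 4.82 per 10000 in cluster 0 and between 4.20 and 4.40 in clusters 1 to 5. The mitosis median in cluster 0 was 0.06, and the 8 spindle genes had a median of -0.14.

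Among other cycle genes in cluster 0, 6 of 60 mitosis genes were called higher, against 2.4% of all genes, led by the condensin gene Ncapg at 0.76, Ckap2 at 0.68, the CDK subunit gene Cks2 at 0.64 and Psrc1 at 0.57, and 1 was lower, against 6.13%. Of 50 replication genes, Timeless at 0.83 and Dctpp1, a dCTP hydrolase gene, at 0.54 were higher and 2 were lower. Over all genes the shares were 2.4% and 6.13%, and no difference is read from so few calls. Of 23 E2F and mitotic transcription regulators, E2f8 and E2f1 were called higher at 0.82 and 0.53, and E2f7 lower at -0.64. Markers of other cells moved with cluster 0: 8 of 9 megakaryocyte markers were called higher, with a summed level of 1.77 per 10000 against 0.88 to 1.53 in the other clusters, and 5 of 12 HSC markers lower, with a sum of 10.9. Markers of further lineages were also called higher there: the T or NK cell gene Nkg7 at 2.09, Cd48 and Flt3 of lymphoid-primed progenitors at 1.71 and 0.66, Ms4a3 of granulocyte-monocyte progenitors at 1.69, the mast cell genes Fcer1a and Cpa3 at 3.39 and 1.62, and the erythroid genes Epor, Rhag and Klf1 at 1.08, 0.76 and 0.70. The value of Fcer1a rests on at least 7 carrying cells, 0.147% of cluster 0 against 0.0324% of other cells. None of the 9 megakaryocyte markers was without a count. Their part in the cell cycle values was not tested.

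**Figure D4:**
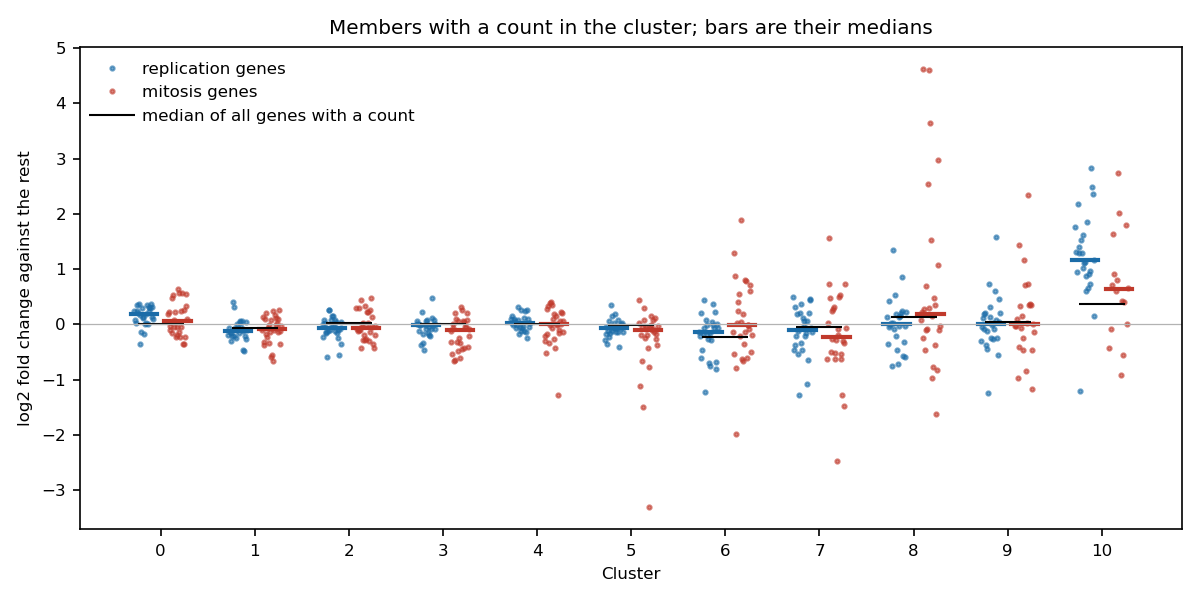
Log2 fold change of each member with a count in each cluster against all other cells, from the authors' deposited tables (blue, replication; red, mitosis), with coloured bars for the medians of these members and black bars for the median of all genes with a count. Points are tightly grouped in clusters 0 to 4, 5 mitosis genes reach 2.54 to 4.62 in cluster 8, and the replication median is 1.17 in cluster 10.

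In clusters 1 to 5 no member was called higher, where 0.123%, 3.02%, 0.703%, 0.387% and 0.135% of all genes were. Replication medians were -0.12, -0.06, -0.02, 0.02 and -0.06, and mitosis medians -0.08, -0.07, -0.10, 0.00 and -0.10. In cluster 1 Cenpe and Cenpf were called lower at -0.59 and -0.55 in the authors' deposited table (1.56% of all genes lower). In cluster 2 the loader gene Cdc6 and Uhrf1 were lower at -0.59 and -0.56 (2.66%), Cdc6 being in 4.62% of cells against 6.77%. In cluster 3 Aurkb and Cenpe were lower at -0.67 and -0.62 (1.37%). In cluster 4 Hmmr was lower at -1.28, in at least 5 of 3747 cells (0.826% of all genes lower), and in cluster 5 Nuf2 at -3.31, in 1 of 1188 cells (0.885%). These lower calls of mitosis genes each rest on transcripts in under 3% of cells.

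Clusters 6 and 7 had lower values of many genes, and 0.0469% and 1.84% of all genes were called higher there, with no member among them. In cluster 6, where 12.2% of all genes were called lower with a count, Lig1, Pola1 and Mcm4 were lower at -0.76, -0.71 and -0.61, and Aurkb at -1.99 with 1 carrying cell. The replication median of -0.14 and the mitosis median of -0.01 were above the all-gene median of -0.23 in that table. In cluster 7, where 9.46% of all genes were called lower, Dut was lower at -0.64 (33.4% of cells against 54.5%) and Cenpf at -2.48 with 1 carrying cell. The mitosis median there was -0.28, the lowest among clusters 0 to 9, and the replication median -0.09, against -0.04 for all genes. Pcna was in 35.3% and 32.3% of clusters 6 and 7, below every other cluster, beside typical counts per cell of 10314 and 8490, the lowest of the 11. The part of depth in this was not tested. In cluster 9 Gins2 was lower at -1.24 (1.68% of all genes lower), in 5.07% of cells against 8.73%, and both medians were near 0. There 2 of 19 DNA damage and p53 target genes were called higher, against 1.2% of all genes: Cdkn1a, the CDK inhibitor p21, at 3.34 (29.7% of cells against 6.0%) and Btg2, an antiproliferative gene, at 3.18 (86.2% against 42.0%).

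In cluster 10 most replication genes had fold changes above the all-gene median, though 3 of 26 were called. Its 10 cells had a typical count of 47224, the highest of all clusters, and the all-gene median there was 0.37. Mcm3, Slbp and Pcna were called higher at 1.30, 1.17 and 1.13 in the authors' deposited table, where 1.79% of all genes were called higher and 0.158% lower. They were in at least 8, 9 and 9 of the 10 cells, against 39.8%, 40.1% and 49.0% of other cells. The replication median was 1.15, with 23 of 26 above the all-gene median. The chromatin group was highest (1.76), then licensing (1.35), helicase activation (1.2), nucleotide supply (0.92) and the polymerase and clamp group (0.88). Rrm2 had no count and the loader gene Cdc6 was at -1.20. The condensin gene Smc4 was the 1 mitosis gene called higher, at 0.66. Of the 28 mitosis genes, 12 had no count, which in 10 cells allows a share of up to 30%. The 16 with a count had a median of 0.63, also above the all-gene median. A single count weighs less in a deeper cell and more genes are found there, so shares in cluster 10 are not comparable with the rest, and the part of depth or of droplets with more than 1 cell was not tested. Other genes called higher there were Timeless at 3.01 and Dctpp1 at 0.75 of the replication list, Cbx5 at 1.01 of the mitosis list, and Lin52 of the MuvB complex and E2f6, a repressor E2F, at 1.95 and 1.10.

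The replication median less the mitosis median was 0.12, -0.04, 0.01, 0.08, 0.03 and 0.03 in clusters 0 to 5, and -0.13, 0.19, -0.11, 0.04 and 1.64 in clusters 6 to 10. The 1.64 in cluster 10 rests on a mitosis median of -0.49, which ranks the 12 mitosis genes with no count lowest. Among members with a count the difference there was 0.54, and among those at or above the median level (17 replication and 5 mitosis genes) 0.71. Taking off the all-gene median cannot change the replication minus mitosis difference. In clusters 0 to 6 every member had a count, so keeping only members with a count cannot change it either. Under the alternatives that could change it, its sign held in clusters 0, 1, 3, 6, 7 and 10. It turned under at least 1 of them in clusters 2 (to -0.13), 4 (to -0.02), 5 (to -0.04), 8 (to 0.13) and 9 (to -0.11), so no order of the groups is read there. Over the folds of clusters 0 to 5, the median Pearson r between pairs of genes was 0.29 within replication (325 pairs), 0.03 within mitosis (378 pairs) and 0.13 between the groups (728 pairs). Each r is over 6 clusters that serve as each other's controls, and the mitosis genes were scarcer (median 0.0181 against 0.15 per 10000), so the groups are not ranked by it. The genes whose folds over clusters 0 to 9 were most like the mean of the 26 replication genes were Pus10 (r = 0.97), Pbrm1 (0.96), Btk (0.95), Elf1 (0.92) and Ssrp1 (0.92), out of 8512 compared. Ssrp1 encodes a subunit of the histone chaperone FACT. For the 21 mitosis genes with a count in all 10 clusters they were Cxxc1 (0.93), Fem1b (0.92), Tti2 (0.92), Lockd (0.91) and the histone gene Hist1h4i (0.91). In cluster 8 these ran from 0.42 (Fem1b) to 2.66 (Hist1h4i). The mean of the 21 includes Cenpe, Mki67 and Ube2c, at 4.60, 2.98 and 2.54 in cluster 8, so that cluster weighs heavily in these r values.

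The deposited pathway tables score 2922 gene sets in the same cells, so they are a further view of the same counts and not independent of the genes. Of 55 pathways named for the cell cycle, 43 passed an adjusted p under 0.05 as higher in cluster 8 and none as lower, against 55.0% and 6.37% of all pathways. In cluster 0 they numbered 43 higher and 6 lower, against 52.4% and 26.1% of all. In cluster 10 they were 45 and 0, against 64.2% and 0.924%, and in clusters 6 and 7, 51 and 46 were lower, against 83.8% and 51.5%. In the authors' deposited table KEGG DNA replication was at -0.02 in cluster 8, 0.09 in cluster 0 and 0.67 in cluster 10, and Reactome S phase at 0.15, 0.06 and 0.33. Reactome mitotic prometaphase was at 0.08, -0.01 and 0.34, and Reactome mitotic metaphase and anaphase at 0.14, 0.04 and 0.29. The medians of all pathways were 0.09, 0.02 and 0.27, so in cluster 8 the DNA replication set lay below the median pathway and the S phase set above it. These 4 sets were picked from the 55 with their values known.

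For 10 members, a gene measured in the same tables overlaps them on the other strand: Mcm7, Cdc45, Gins2, Fen1, Lig1, Ccna2, Cdc20, Nusap1, Tacc3 and Tubb4b. The sources used here do not say whether the counting used strand, so their values, among them the lower calls of Gins2, Fen1, Lig1, Tacc3 and Tubb4b, may include reads of the partner. None of the 5 mitosis genes called higher in cluster 8 overlaps a measured gene.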

How the data were processed

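HSC RNA was measured in 6 droplet libraries of about 10000 loaded cells each, per the labels. Processing used Scanpy on mm10, per the submitters' processing notes. No source used here names the aligner, the cell or doublet filters, the clustering or the test. The authors deposited, for each of 11 clusters, a gene table with the log2 mean level, the log2 fold change, a p-value and its adjusted value, and a pathway table with a signed score, a log2 fold change and p-values.

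From the values, the level is the log2 of the mean of counts scaled to 10000 per cell, the fold change compares means of log values with a constant of 1e-09, and the p-value is that of a two-sided Welch test over cells. A gene seen in a single cell then gives a cluster's size, and size, fold and p together give each cluster's mean and variance, and from them a lower limit on the number of cells with a transcript (the squared sum over the sum of squares). The means closed on the deposited level within 4.36e-08, and this step was checked on simulated data with Scanpy 1.11.5. The typical count per cell comes from genes in few cells of a cluster. Intervals are 95% exact binomial ones, and a count of 0 was taken to allow 3. No test was run here, because each group is 1 library and no table has a sample column.

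A call needs a log2 fold change of 0.5 in size and an adjusted p under 0.05. A gene under -10 has no count in the cluster. Named are all 54 members, the called members of each cluster, up to 4 called genes per other list and the 5 genes most alike in pattern. The members, the lists and the alternatives (fold limit, p filter, level filter, clusters used, centring, mean for median) were chosen with earlier results of these data known, and the promoters shown and the 4 named pathway sets with the values known. Promoters come from RefSeq. Python 3.11.15, numpy 2.4.6, scipy 1.17.1 and pandas 2.3.3 were used.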

Additional observations from a re-analysis of the deposited data

How the results depend on the processing

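Of 160 alternative values 28 moved beyond the spread between members, or by over 1.5 times for a count, and 1 changed sign beyond that spread. The calls of members depend on the limits set. Replication genes called higher (3) numbered 13 at a fold limit of 0.25, 29 with no filter on p and 0 in clusters 0 to 5 or without clusters 8 and 10, a choice made after seeing the data. Those called lower (8) numbered 18, 19 and 2 under the first of these settings, 1 at a limit of 1 and 5 among genes at or above the median level. Mitosis genes called higher (9) numbered 5 at a limit of 1, 39 with no filter on p, 3 in clusters 0 to 5 or without clusters 8 and 10, and 2 at or above the median level. Those called lower (10) numbered 17 at 0.25, 5 at 1, 38 with no filter, 6 in clusters 0 to 5 and 1 at or above the median level. Medians near 0 often changed sign: 18 of 88 values of the group medians and 7 of 44 of the replication minus mitosis difference did, most of them within the spread between members. Centring cannot change the difference, and keeping only members with a count changes nothing in clusters 0 to 6. The 160, 88 and 44 values therefore include some that were fixed in advance. Among genes at or above the median level, the mitosis median in cluster 0 was -0.19 and its replication minus mitosis difference 0.31. Only 5 of 28 mitosis genes reach that level, and this median is the value of 1 of them, Cenpa. As means over genes with a count, the mitosis value was -0.31 in cluster 5 (difference 0.24), 0.69 in cluster 8 (difference -0.68) and 0.67 in cluster 10, where the median of those genes was 0.63. With the all-gene median taken off, the replication median in cluster 6 turned to 0.0894 and that in cluster 10 was 0.77. No paired analysis was possible because each group is 1 library and the tables carry no sample columns. Depth limits what a 0 means in clusters 8 to 10, where it allows shares of up to 1.73%, 2.68% and 30%.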
